A study of Mus musculus with 8 samples.

Results

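The cornified envelope genes described here are 33 genes, out of 55418 genes with a value in every library, that were chosen by name. They are the 14 genes whose symbol begins with Lce1, for late cornified envelope 1, and 19 listed genes of the same outer layer of the epidermis. All 33 were present in the deposited values and all 33 reached 1 FPKM, the fragments of a gene per length of its transcript and per size of the library, in every library. RNA was sequenced from the skin of mice labelled hairloss, which carry a spontaneous mutation, and of mice labelled wildtype. Skin was taken at postnatal days 0, 16, 19 and 28, with 1 library for each genotype and age, 8 libraries in all. Neither the mutated gene nor the strain nor the number of animals per library was given in the sources used here. With 1 library in each group, a difference at 1 age describes those 2 libraries and has no replicate error of its own. In a bulk sample, fewer cells of a type and less RNA per cell cannot be told apart.

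Keratinocytes that leave the basal layer of the epidermis assemble a cornified envelope, a sheet of cross-linked protein that replaces the cell membrane in the dead outer cells and holds the skin barrier. Loricrin, involucrin and the late cornified envelope proteins are precursors of that sheet, transglutaminases cross-link them, and the plakins envoplakin and periplakin begin the scaffold at the membrane. Many precursor genes, the Lce1 genes among them, lie together in the epidermal differentiation complex, which in the mouse is on chromosome 3.

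The libraries were estimated to hold 30200000 to 43700000 fragments, and 3 fragments over 1 kb of transcript come to 0.0686 to 0.0993 FPKM, counting error only, at that depth. The lowest value of any member, 1.27 FPKM for Lce1j in wildtype skin at day 28, corresponded to about 32.4 fragments. Sex markers of the 2 genotypes matched only at day 16. Y-linked Ddx3y was at 0, 20.4, 19.4 and 0 FPKM in the hairloss libraries of days 0, 16, 19 and 28, against 16.3, 20.1, 15.8 and 16.5 FPKM in wildtype libraries. Xist RNA, made from the inactive X chromosome, was at 76.1, 0.00961, 0.115 and 50.2 FPKM in hairloss libraries, against 51.3, 0.0158, 12.4 and 0.166 FPKM in wildtype libraries, so the wildtype libraries of days 0 and 19 held both kinds of RNA. What sex added to the differences below was not tested.

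The Lce1 genes fell into runs along the chromosome. In build mm10 with the GENCODE M21 annotation, 13 of them lie between Lce1a1 (ENSMUSG00000057609), which starts at 92646535, and Lce1l, which ends at 92851286. Lce1m (ENSMUSG00000027912) lies apart from them at 93017810 to 93019060, near Crct1 at 93014205 to 93015687. All are on the minus strand except Lce1c. The 100 bases before the transcription start are shown for 5 Lce1 genes with different behaviour in these libraries, and for Lor and Krtdap as members of other families. They are RefSeq sequences of build GRCm38.p6 on the gene's own strand. The capitals mark a stretch, CACTGTNTCA, that many Lce1 promoters share, the TATA-like boxes AATAAAAGG, TATAAAAGG and TATAAA, and TGANTCA, the site known for AP-1 transcription factors.
Lce1a2 (chr3:92670316-92670415, minus strand): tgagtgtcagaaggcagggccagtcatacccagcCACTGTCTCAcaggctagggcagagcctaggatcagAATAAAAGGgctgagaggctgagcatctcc
Lce1e (chr3:92709075-92709174, minus strand): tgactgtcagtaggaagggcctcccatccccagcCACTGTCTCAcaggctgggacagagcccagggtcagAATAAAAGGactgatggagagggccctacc
Lce1g (chr3:92752339-92752438, minus strand): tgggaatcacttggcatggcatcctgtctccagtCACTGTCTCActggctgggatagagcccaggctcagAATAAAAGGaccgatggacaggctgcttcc
Lce1l (chr3:92851287-92851386, minus strand): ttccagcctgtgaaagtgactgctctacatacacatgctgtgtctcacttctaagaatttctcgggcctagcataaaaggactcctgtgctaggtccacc
Lce1m (chr3:93019062-93019161, minus strand): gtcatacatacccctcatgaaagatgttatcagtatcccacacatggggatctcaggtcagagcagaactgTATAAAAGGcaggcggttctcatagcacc
Lor (chr3:92083143-92083242, minus strand): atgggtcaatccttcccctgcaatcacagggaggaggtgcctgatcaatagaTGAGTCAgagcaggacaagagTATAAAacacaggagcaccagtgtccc
Krtdap (chr7:30787805-30787904, plus strand): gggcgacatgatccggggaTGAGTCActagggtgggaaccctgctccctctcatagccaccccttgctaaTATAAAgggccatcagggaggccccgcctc

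RefSeq promoters were matched for 26 of the 33 members, among them 13 of the 14 Lce1 genes, Lce1f being the one without an entry. Within the 250 bases before the start, on either strand, CACTGTNTCA stood in 9 of those 13 Lce1 genes (Lce1a1, Lce1a2, Lce1b, Lce1c, Lce1d, Lce1e, Lce1g, Lce1h and Lce1j) and in 0.259% of 32851 mouse promoters. The box AATAAAAGG stood in 7 of the 13 (Lce1a2, Lce1c, Lce1e, Lce1g, Lce1h, Lce1i and Lce1j) and in 0.463% of all promoters. Both were chosen for the search after the sequences had been read, with their letters taken from the Lce1a2 window. The letters of TATAAAAGG and TATAAA were likewise taken from the Lce1m window. The matches in Lce1a2 and Lce1m were therefore fixed in advance. TATAAAAGG, which contains TATAAA, stood in Lce1d and Lce1m and in 0.627% of all promoters. TATAAA alone stood in Lce1d, Lce1m, Lor, Ivl and Krtdap and in 12.4% of all promoters. TGANTCA stood in none of the 13 Lce1 windows and in those of Dmkn, Ivl, Krtdap, Lor, Sbsn and Scel, against 6.75% of all promoters. Compared with the other 12 Lce1 windows, that of Lce1m had a median identity of 53.5% and that of Lce1l 53.3%, while Lce1k had 59.5% and the other 10 had 63.4% to 68.7%. A match is a description of the letters in the window and not a shown binding site.

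Lce1m was lower in hairloss skin than in wildtype skin at every age. It stood at 87.1, 14.6, 18.7 and 55.4 FPKM in the hairloss libraries of days 0, 16, 19 and 28, against 151, 139, 381 and 99.2 FPKM in wildtype libraries. The genotypes did not overlap, since the highest hairloss value lay under the lowest wildtype value, and the gap was widest at days 16 and 19. Wildtype skin held 1.73, 9.55, 20.4 and 1.79 times the hairloss level at the 4 ages. As log2(FPKM + 1), a scale that compresses low values, the differences were -0.78, -3.17, -4.28 and -0.83. In each wildtype library Lce1m was the highest of the 14 Lce1 genes per length, whereas in each hairloss library that place belonged to Lce1a1.

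**Figure D1:**
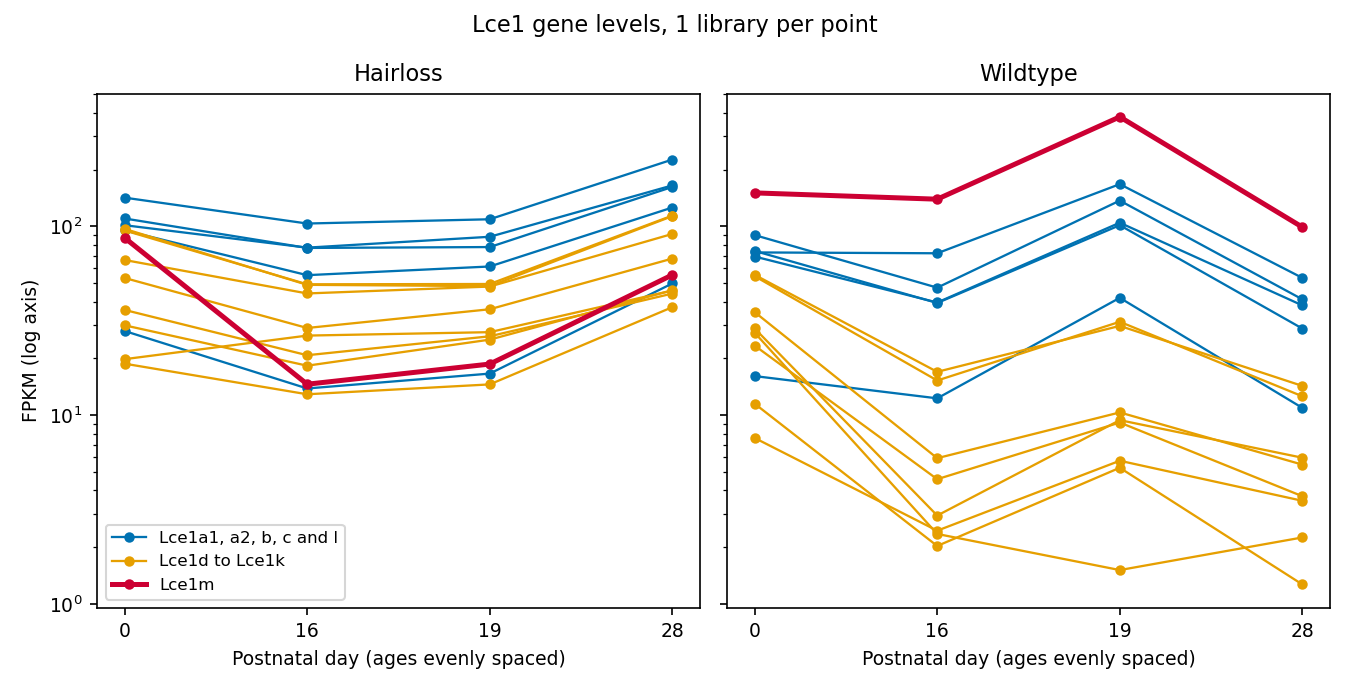
Levels of the 14 Lce1 genes in FPKM on a log axis against postnatal day, with ages evenly spaced, hairloss on the left and wildtype on the right, and 1 library per point. Lce1m (red) lies at 14.6 to 87.1 FPKM in hairloss skin and at 99.2 to 381 FPKM in wildtype libraries, and from day 16 on Lce1d to Lce1k (orange) lie at 12.9 to 114 FPKM in hairloss skin and at 1.27 to 31.3 FPKM in wildtype skin.

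The other 13 Lce1 genes stood higher in hairloss skin at days 0, 16 and 28, and at day 19 they were split. All 13 were above the wildtype value at days 0, 16 and 28, and 8 of 13 were at day 19. Counting a gene as past 2-fold when log2(FPKM + 1) differed by that much and either library reached 1 FPKM, 1 of them was higher at day 0, 9 at day 16, 6 at day 19 and 13 at day 28, and 2 were lower, both at day 19. Over all genes compared, 1.49%, 5.34%, 6.53% and 5.6% were higher by that rule at days 0, 16, 19 and 28, and 5.76% were lower at day 19. The median difference of the 13 genes was 0.66, 1.63, 0.68 and 3.08 on the log2(FPKM + 1) scale, against -0.01, -0.08, 0.00 and 0.00 over all genes. In hairloss skin all 13 had their highest level at day 28. For 12 of them that library was the highest of all 8, as it was for 6.58% of all genes. For 10 of them the wildtype library of day 28 was the lowest. Shares of all genes with that lowest library, or with their hairloss peak at day 28, were not computed.

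Lce1d to Lce1k, the 8 genes that follow each other from 92685499 to 92807891, held wider gaps than the 5 other genes at days 16 and 28. Lce1k stood at 19.8, 26.4, 27.6 and 45.8 FPKM in the hairloss libraries of days 0, 16, 19 and 28, against 7.59, 2.45, 5.75 and 3.53 FPKM in wildtype libraries. It did not overlap between the genotypes and passed 2-fold at every age, the differences being 1.28, 2.99, 2.08 and 3.37 on the log2(FPKM + 1) scale. Lce1g stood at 36.1, 20.8, 26.2 and 44.1 FPKM in hairloss libraries, against 27.4, 2.35, 1.51 and 2.25 FPKM in wildtype libraries. Its wildtype level at day 0 lay inside the hairloss range, and from day 16 on the hairloss level was 8.84, 17.3 and 19.6 times the wildtype level.

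Lce1e stood at 53.4, 29.0, 36.4 and 67.6 FPKM in hairloss libraries, against 28.8, 2.94, 9.43 and 5.96 FPKM in wildtype libraries. Lce1f stood at 66.5, 44.2, 48.1 and 91.3 FPKM in hairloss libraries, against 35.2, 5.93, 10.4 and 5.48 FPKM in wildtype libraries. Lce1j stood at 18.8, 12.9, 14.6 and 37.4 FPKM in hairloss libraries, against 11.5, 2.03, 5.27 and 1.27 FPKM in wildtype libraries. None of these 3 genes overlapped between the genotypes, and Lce1j at day 28 had the widest ratio among the members, 29.4-fold. For Lce1e the margin was narrow, 29.0 FPKM in hairloss skin at day 16 against 28.8 FPKM in wildtype skin at day 0. Lce1h stood at 30.0, 18.3, 25.2 and 46.0 FPKM in hairloss libraries, against 23.4, 4.59, 9.16 and 3.73 FPKM in wildtype libraries. Lce1d ran from 49.4 to 114 FPKM in hairloss skin and from 12.6 to 54.5 FPKM in wildtype libraries, and Lce1i from 48.3 to 113 FPKM in hairloss skin and from 14.3 to 55.4 FPKM in wildtype libraries. Lce1d, Lce1h and Lce1i were higher in hairloss skin at all 4 ages, but their wildtype level at day 0 lay within the hairloss range.

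Lce1a1, Lce1a2, Lce1b, Lce1c and Lce1l were higher in hairloss skin at days 0, 16 and 28, and lower at day 19. Lce1a1 stood at 142, 104, 109 and 226 FPKM in the hairloss libraries of days 0, 16, 19 and 28, against 90.0, 47.4, 137 and 41.1 FPKM in wildtype libraries. Lce1a2 stood at 110.2, 77.0, 77.8 and 162 FPKM in hairloss libraries, against 72.9, 72.1, 168 and 53.4 FPKM in wildtype libraries. Lce1l stood at 27.96, 13.9, 16.6 and 49.9 FPKM in hairloss libraries, against 16.1, 12.3, 41.9 and 10.9 FPKM in wildtype libraries. In these 3 genes the genotypes overlapped, with the wildtype library of day 19 above 2 hairloss libraries for Lce1a1, above all 4 for Lce1a2 and above 3 for Lce1l, and that of day 28 below all 4. Lce1b ran from 77.2 to 165 FPKM in hairloss skin and from 38.2 to 105 FPKM in wildtype libraries, and Lce1c from 55.2 to 126 FPKM in hairloss skin and from 28.8 to 102 FPKM in wildtype libraries. Lce1a2 and Lce1l were the 2 genes more than 2-fold lower at day 19, by -1.10 and -1.28 on the log2(FPKM + 1) scale, and both were more than 2-fold higher at day 28.

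The division into Lce1d to Lce1k and the 5 others was made after the values were seen, so it carries no test. As summed levels, Lce1d to Lce1k reached 417, 250.2, 276 and 559.8 FPKM in the hairloss libraries of days 0, 16, 19 and 28, against 244, 52.6, 103 and 49.1 FPKM in wildtype libraries. The 5 others reached 477, 327, 353 and 729 FPKM in hairloss libraries, against 323, 211, 553 and 172 FPKM in wildtype libraries. Lce1d to Lce1k therefore made up 46.6%, 43.3%, 43.9% and 43.4% of the 13-gene sum in hairloss skin, against 43.1%, 20.0%, 15.6% and 22.2% in wildtype skin. The shares were alike at day 0 and in all hairloss libraries, and lower in the 3 later wildtype libraries. Lce1m made up 8.88%, 2.47%, 2.88% and 4.12% of the RNA of all 14 Lce1 genes in hairloss skin, against 21.002%, 34.6%, 36.7% and 30.9% in wildtype skin.

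**Figure D2:**
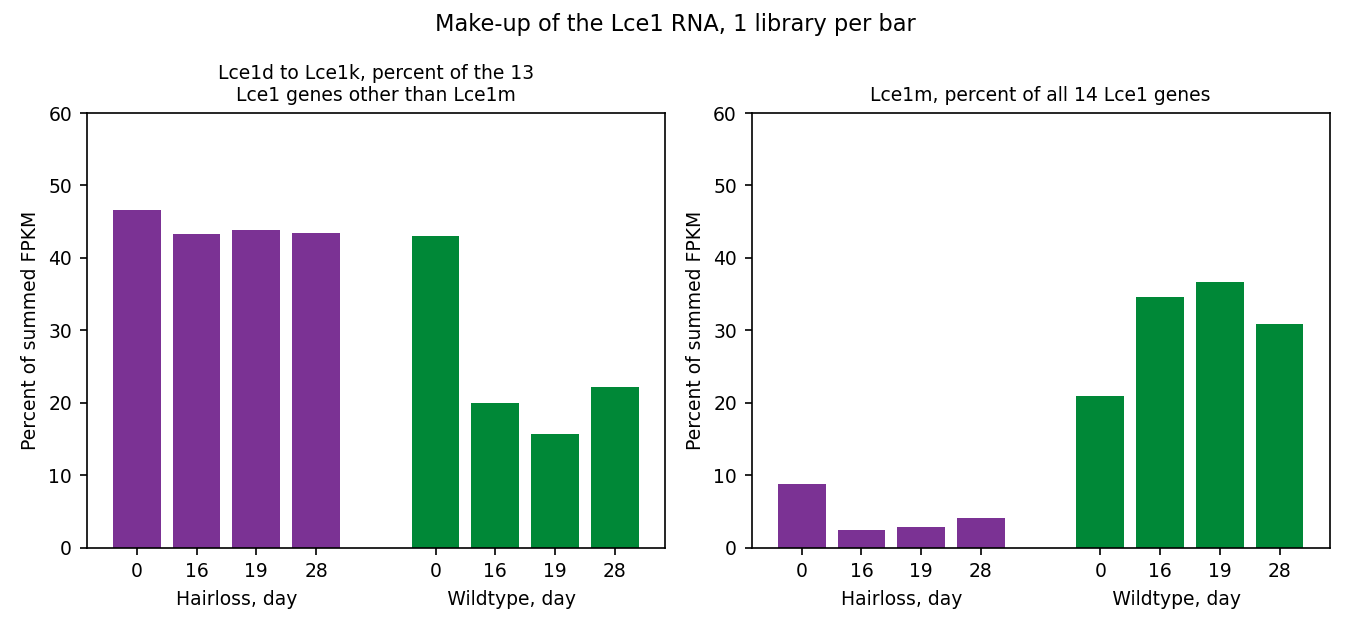
Share of the summed Lce1 FPKM, in percent, taken by Lce1d to Lce1k (left, of the 13 genes other than Lce1m) and by Lce1m (right, of all 14 genes), 1 bar per library, hairloss in purple and wildtype in green by postnatal day. Lce1d to Lce1k hold 43.3% to 46.6% in hairloss skin and 15.6% to 43.1% in wildtype skin, and Lce1m holds 2.47% to 8.88% in hairloss skin and 21.002% to 36.7% in wildtype skin.

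The Lce1 transcripts are alike enough for short reads to be shared. Of all 50-base windows in their annotated transcripts, 9.12% in Lce1k to 27.1% in Lce1i also occur in another gene, while Lce1m shares none. The partners were other Lce1 genes and, for all of the 13 but Lce1a2, the gene Gm38119. How the windows divide between these partners was not counted. The authors' way of splitting such reads was not given in the sources used here, so the single values of the 13 genes are less certain than their sum. The sum in turn leaves out any reads given to Gm38119. The 13-gene sum was 894, 577, 629 and 1289 FPKM in the hairloss libraries of days 0, 16, 19 and 28, against 567, 263, 655 and 222 FPKM in wildtype libraries. The hairloss sum was 1.58, 2.19, 0.960 and 5.82 times the wildtype sum, so at day 19 the sum was slightly lower in hairloss skin although the median gene was higher.

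The Lce1 sum was set against keratins of the suprabasal layers, in which the envelope is made, and against Lor. Krt10 stood at 3507, 1715, 2049 and 3251 FPKM in hairloss libraries, against 2038, 508, 1107 and 406 FPKM in wildtype libraries, and so was higher in hairloss skin at each age, like the Lce1 sum at days 0, 16 and 28. Per unit of Krt10 the Lce1 sum was 0.255, 0.337, 0.307 and 0.396 in hairloss skin, against 0.278, 0.519, 0.592 and 0.545 in wildtype skin, lower in hairloss skin at every age. Krt1, its usual partner, stood at 3249, 1914, 2541 and 2623 FPKM in hairloss libraries, against 2155, 76.4, 218 and 82.1 FPKM in wildtype libraries. Per unit of Krt1 the sum was 0.275, 0.302, 0.248 and 0.491 in hairloss skin, against 0.263, 3.45, 3.003 and 2.70 in wildtype skin. Krt77, another suprabasal keratin, did not go with Krt1. It stood at 0.968, 38.5, 10.9 and 481 FPKM in hairloss libraries, against 1.83, 530.2, 1109 and 373 FPKM in wildtype libraries. Lce1m per unit of Krt10 was 0.0248, 0.00852, 0.00912 and 0.0170 in hairloss skin, against 0.0739, 0.275, 0.344 and 0.244 in wildtype skin, lower in hairloss skin at every age. Per unit of Krt77, which was itself near 1 or 2 FPKM at day 0, Lce1m was 90.0, 0.379, 1.72 and 0.115 in hairloss skin, against 82.1, 0.263, 0.343 and 0.266 in wildtype skin, higher in hairloss skin up to day 19 and lower at day 28. Per unit of Lor, another envelope precursor, the Lce1 sum was 9.63, 14.1, 8.68 and 17.1 in hairloss skin, against 4.46, 3.40, 4.21 and 4.28 in wildtype skin, higher in hairloss skin at every age. The direction of these ratios thus depended on the gene they were taken against.

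Of the other envelope precursors of chromosome 3, Crct1 was lower in hairloss skin and Lor, Ivl and Kprp varied with age. Crct1, a small cysteine-rich protein gene beside Lce1m, stood at 75.2, 177, 144 and 106 FPKM in the hairloss libraries of days 0, 16, 19 and 28, against 92.5, 495, 396 and 295 FPKM in wildtype libraries. The genotypes lay close at day 0 and were 2.80, 2.74 and 2.78 times apart afterwards, with wildtype higher. Crct1 was the only member more than 2-fold lower at days 16, 19 and 28, as were 0.422% of all genes. Lor, which encodes loricrin, stood at 92.8, 40.9, 72.5 and 75.4 FPKM in hairloss libraries, against 127, 77.4, 156 and 51.8 FPKM in wildtype libraries. It was lower in hairloss skin up to day 19 and higher at day 28, and passed 2-fold at day 19 alone. Ivl, which encodes involucrin, stayed within 2-fold at all ages, at 16.2, 61.3, 66.4 and 82.4 FPKM in hairloss libraries, against 19.6, 97.0, 53.5 and 81.7 FPKM in wildtype libraries. Kprp, a keratinocyte proline-rich protein gene that lies between Lce1k and Lce1l, stood at 43.5, 32.0, 47.1 and 67.0 FPKM in hairloss libraries, against 29.1, 40.6, 49.1 and 17.4 FPKM in wildtype libraries. Its one gap over 2-fold was at day 28, where it was higher in hairloss skin by 1.89 on the log2(FPKM + 1) scale.

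**Figure D3:**
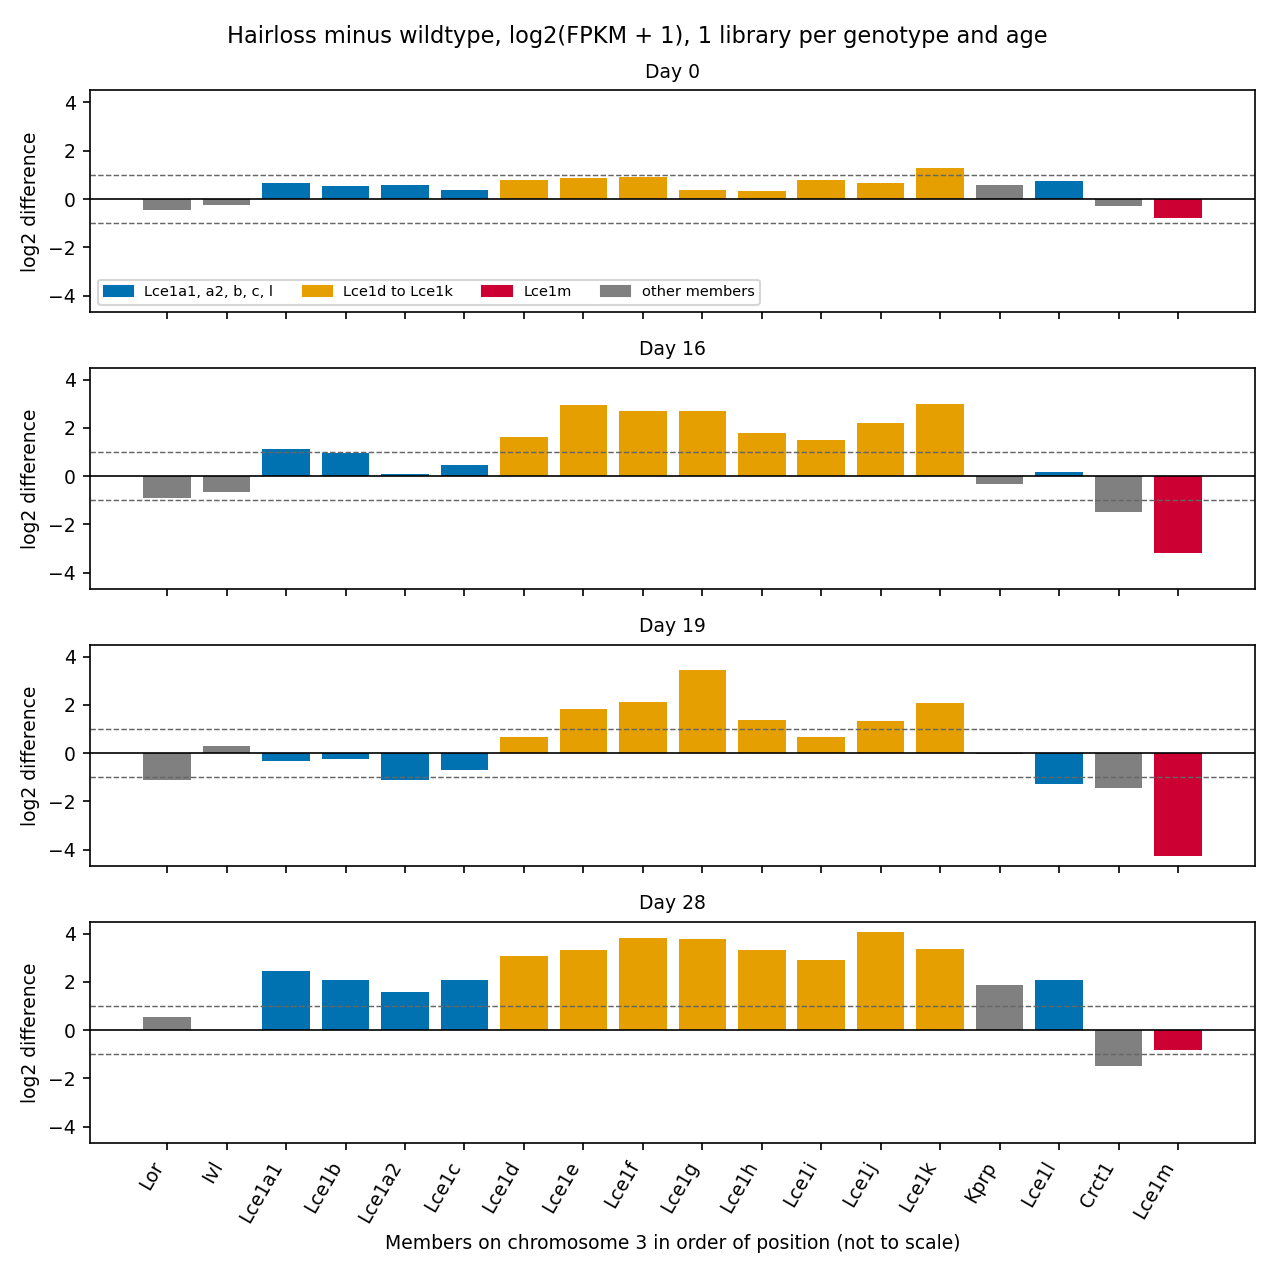
Difference between hairloss and wildtype skin in log2(FPKM + 1) for the 18 members on chromosome 3, in order of position and not to scale, with 1 panel per postnatal day and 1 library per genotype; dashed lines mark 2-fold. At day 28 all 13 Lce1 genes other than Lce1m are past 2-fold upwards, and Lce1m lies at -3.17 at day 16 and -4.28 at day 19, with Crct1 beside it at -1.48 and -1.45.

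Scaffold and cell junction genes mostly stayed within 2-fold. Ppl (periplakin), Scel (sciellin) and Cdsn (corneodesmosin, an adhesive protein of the outermost cell junctions) stayed within 2-fold at all 4 ages. Ppl ran from 61.7 to 86.0 FPKM in hairloss skin and from 54.0 to 145 FPKM in wildtype libraries, Scel from 13.6 to 48.0 FPKM in hairloss skin and from 16.1 to 78.3 FPKM in wildtype libraries, and Cdsn from 63.9 to 215 FPKM in hairloss skin and from 41.7 to 200.1 FPKM in wildtype libraries. Scel was lower in hairloss skin at all 4 ages, by 0.11 to 0.70 in size on the log2(FPKM + 1) scale. Evpl, the envoplakin gene, stood at 33.5, 66.4, 73.0 and 52.5 FPKM in hairloss libraries, against 23.2, 109.9, 31.5 and 55.4 FPKM in wildtype libraries, and passed 2-fold at day 19 alone. Cnfn, the cornifelin gene, stood at 47.4, 203, 227 and 120.3 FPKM in hairloss libraries, against 38.6, 294, 26.6 and 119 FPKM in wildtype libraries. Its 8.55-fold gap at day 19 rested on the wildtype library of that age, the lowest of the 8 for Cnfn, and the other 3 ages were within 2-fold.

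Casp14 and Asprv1, proteases of the cornifying cell that are known for the processing of filaggrin, differed in their patterns. Casp14 stood at 40.0, 76.5, 112 and 103 FPKM in the hairloss libraries of days 0, 16, 19 and 28, against 36.9, 12.1, 14.5 and 27.2 FPKM in wildtype libraries. The genotypes were alike at day 0 and 6.34, 7.73 and 3.77 times apart afterwards, with hairloss higher and no overlap. Asprv1 stood at 603, 573, 632 and 762 FPKM in hairloss libraries, against 376, 683, 505 and 302 FPKM in wildtype libraries, and passed 2-fold at day 28 alone. Filaggrin itself (Flg), not a member, stood at 1743, 1139, 1361 and 1932 FPKM in hairloss libraries, against 1847, 73.2, 89.1 and 195 FPKM in wildtype libraries.

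Krtdap, Sbsn and Dmkn, neighbouring genes on chromosome 7 for secreted proteins of differentiating keratinocytes, varied alike across the libraries. Krtdap stood at 1235, 2738, 3114 and 3865 FPKM in hairloss libraries, against 1237, 2105, 6162 and 1907 FPKM in wildtype libraries. Sbsn stood at 391, 825, 794 and 1071 FPKM in hairloss libraries, against 311, 764, 1116 and 578 FPKM in wildtype libraries. Dmkn stood at 595, 799, 826 and 1001 FPKM in hairloss libraries, against 423, 721, 1225 and 619 FPKM in wildtype libraries. Each was highest in the wildtype library of day 19 and lower in hairloss skin at that age only, apart from Krtdap at day 0, where the genotypes were level. Krtdap at day 28, 2.03-fold higher in hairloss skin, was the one gap over 2-fold among the 3 genes. Sbsn overlaps Tmem147os on the same strand and shares 6.96% of its windows with it, so part of its value may be that gene's.

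Among the remaining members, Calm4, Lgals7 and Nccrp1 were higher in hairloss skin at every age, and Calml3 and Trex2 stayed within 2-fold. Calm4, a calmodulin-like calcium-binding protein of differentiated keratinocytes, stood at 2006, 1672, 2301 and 2426 FPKM in hairloss libraries, against 789, 274, 524 and 264 FPKM in wildtype libraries. It did not overlap and passed 2-fold at every age, as did Lce1k and no other member; 4.72% of its windows also occur in Calm5. Lgals7, which encodes galectin-7 of stratified epithelia, stood at 590.1, 2814, 2817 and 1661 FPKM in hairloss libraries, against 447, 947, 632 and 942 FPKM in wildtype libraries. It passed 2-fold at days 16 and 19. Nccrp1 stood at 23.5, 28.9, 64.7 and 35.5 FPKM in hairloss libraries, against 16.8, 13.3, 12.2 and 8.02 FPKM in wildtype libraries, without overlap. Nccrp1 and Calm4 each overlap another annotated gene on the same strand, and Lgals7 overlaps one on the opposite strand. Calml3, a calmodulin-like gene, ran from 46.7 to 117 FPKM in hairloss skin and from 54.2 to 125 FPKM in wildtype libraries, and Trex2, an exonuclease gene of cornifying cells, from 17.8 to 36.2 FPKM in hairloss skin and from 13.5 to 36.4 FPKM in wildtype libraries.

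**Figure D4:**
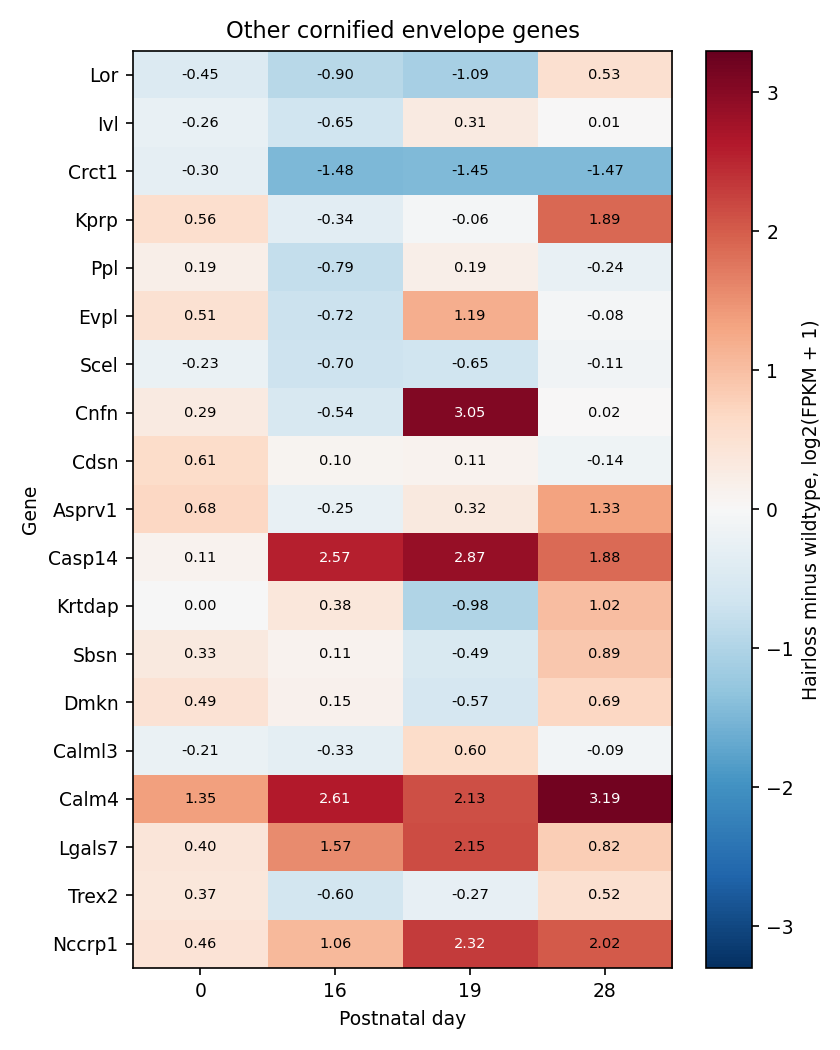
Difference between hairloss and wildtype skin in log2(FPKM + 1) for the 19 members other than Lce1 genes (rows) at each postnatal day (columns), 1 library per genotype and age, red where hairloss is higher and blue where it is lower. Calm4 is red at all 4 ages, Casp14 from day 16 on, Crct1 is blue from day 16 on, and Cnfn stands out at day 19 with 3.05.

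Counted over all 33 members, 2 were more than 2-fold higher and 0 lower at day 0, while day 16 had 13 higher and 2 lower, day 19 had 12 higher and 5 lower, and day 28 had 19 higher and 1 lower. The shares of all genes that were higher by the same rule were 1.49%, 5.34%, 6.53% and 5.6%. The shares that were lower were 1.58%, 7.39%, 5.76% and 6.42%. Of the 19 members other than Lce1 genes, 1, 4, 6 and 6 were higher and 0, 1, 2 and 1 lower at days 0, 16, 19 and 28. At all ages 8 of them stayed within 2-fold, a count for which the share of all genes was not computed. Their median differences were 0.33, -0.33, 0.19 and 0.53 on the log2(FPKM + 1) scale. Over the 4 ages, 7 members had all hairloss values above all wildtype values, as did 2.35% of all genes, namely Lce1e, Lce1f, Lce1j, Lce1k, Casp14, Calm4 and Nccrp1. Lce1m alone had them all below, as did 2.51% of all genes. Without day 0, when 3 libraries faced 3, the counts were 12 and 2 members, against 8.58% and 10.7% of all genes. Members higher in hairloss skin at each of the 4 ages numbered 12, against 11.5% of all genes, and 3 members (Lce1m, Crct1 and Scel) were lower at each age against 13.5%. More than 2-fold higher at days 16, 19 and 28 were 9 members, against 0.7% of all genes.

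The genotype difference over the 4 ages was tested for all genes in limma, with age as a block. None of the 33 members passed a Benjamini-Hochberg adjusted p of 0.05 over the 18724 genes tested, and the same was true with eBayes run without trend and robust. Of all genes 5 were called higher (0.0267%) and 2 lower (0.0107%). Before adjustment 15 members had p under 0.05, 12 higher and 3 lower, among 2511 of all genes. Calm4 had the lowest p, with a mean difference of 2.32 ± 0.33 (SE, 4 ages) on the log2(FPKM + 1) scale and an adjusted p of 0.295 in limma, higher at 4 of 4 ages. Lce1k had 2.43 ± 0.36 and an adjusted p of 0.302 in limma, also higher at 4 of 4 ages. Lce1m had a mean difference of -2.26 ± 0.71 and an adjusted p of 0.347 in limma, lower at 4 of 4 ages, and Crct1 had -1.17 ± 0.25 and an adjusted p of 0.308. The error in this fit starts from the spread of a gene's difference over ages, with 3 residual degrees of freedom. The eBayes step then moderates it with the spread of all genes, so the SE and p are moderated values. A gap that widens with age adds to the error. A change of the difference with age could not be tested with 1 library per group.

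**Figure D5:**
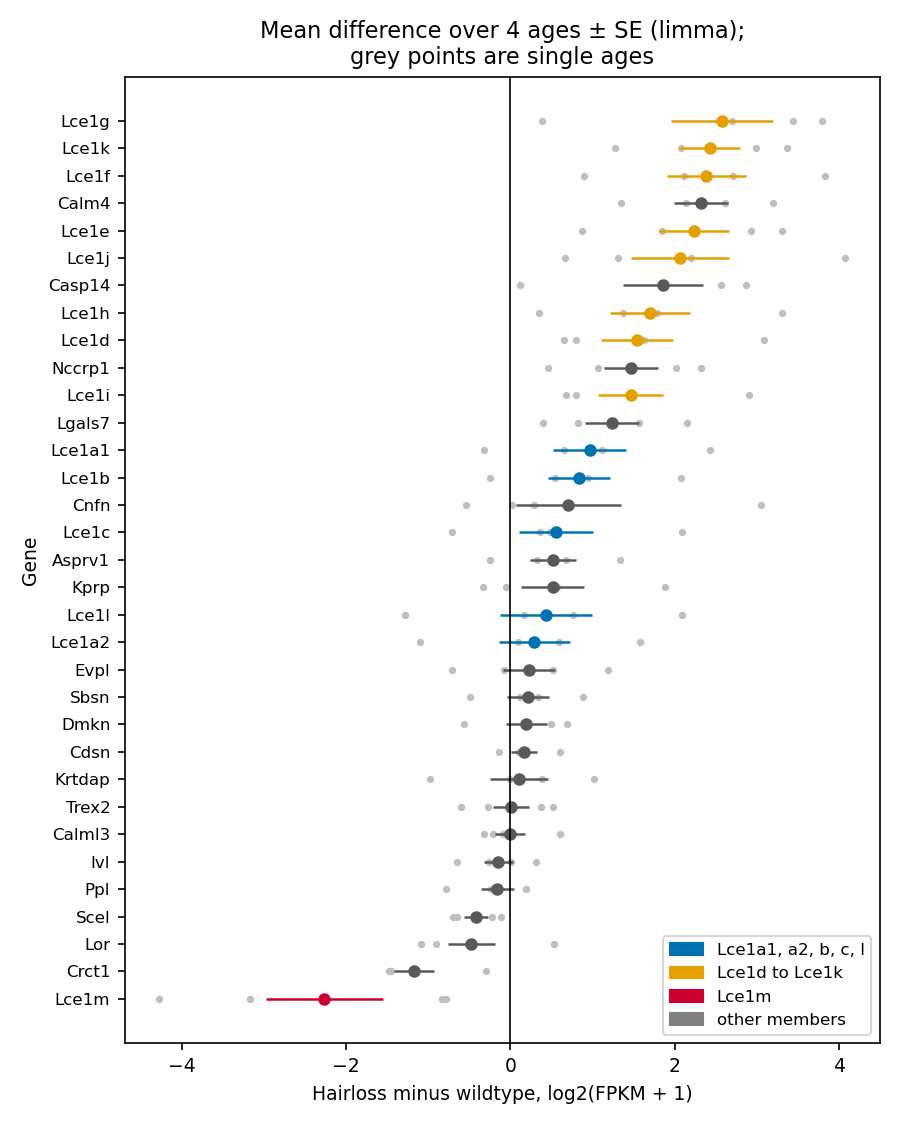
Mean difference between hairloss and wildtype skin over the 4 ages in log2(FPKM + 1), with its standard error from limma, for each of the 33 members (rows); grey points are the differences at single ages. Lce1g, at 2.58, has the highest mean and Lce1m, at -2.26, the lowest, and no member passed the adjusted threshold.

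Between ages, the mean step over both genotypes passed the test for 4 members. The fit does not test whether both genotypes took the step. From the same limma fit, day 16 minus day 0 was 1.98 ± 0.20 for Scel with an adjusted p of 0.0230, and 1.98 ± 0.23 for Cdsn with an adjusted p of 0.0244 (log2 scale, SE). Ivl rose by 2.05 ± 0.25 with an adjusted p of 0.0272 in limma, and Crct1 by 1.82 ± 0.35 with an adjusted p of 0.0450, which became 0.0691 without a filter on low values. Over all genes 3.58% rose and 4.42% fell in this step, 670 and 827 genes, or 588 and 1720 with libraries scaled to coding genes without keratins and keratin-associated proteins. None of the Lce1 genes passed, though the estimate was negative for all 14. Its median was -1.28 over the 13 genes other than Lce1m, and it was -1.30 for Lce1m. The estimate averages steps that could differ. Lce1m fell from 87.1 to 14.6 FPKM in hairloss skin and from 151 to 139 FPKM in wildtype skin. Lce1k rose from 19.8 to 26.4 FPKM in hairloss skin and fell from 7.59 to 2.45 FPKM in wildtype skin. Every other Lce1 gene stood lower at day 16 than at day 0 in both genotypes. In wildtype skin Lce1a2 was nearly level, at 72.9 FPKM at day 0 and 72.1 FPKM at day 16. In the steps to day 19 and to day 28, 0 of 33 members passed in limma and 0 had a raw p under 0.05, while among all genes 975 and 1910 did. For the step to day 19, 0.00534% of all genes were called higher and 0.0107% lower, and for the step to day 28 none were.

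Around the members, a list of 12 genes that cross-link, accompany or regulate the envelope was read in the same fits. Grhl3, a transcription factor of barrier formation, was the 1 gene of the 12 called for genotype, at 15.7, 35.9, 42.3 and 34.0 FPKM in hairloss libraries, against 6.07, 12.6, 15.8 and 11.2 FPKM in wildtype libraries. It was higher in hairloss skin at 4 of 4 ages, with an adjusted p of 0.0461 in limma. The genotypes overlapped slightly, since the hairloss level at day 0 lay just under the wildtype level at day 19. In the step from day 0 to day 16, 2 of the 12 rose, Grhl3 with an adjusted p of 0.0303 and Cebpb with 0.0480 in limma, and 0 fell. The transglutaminase gene Tgm1 stood at 19.3, 35.3, 32.6 and 20.6 FPKM in hairloss libraries, against 26.7, 69.5, 28.4 and 50.2 FPKM in wildtype libraries. Tgm3, the transglutaminase of the hair follicle and the epidermis, stood at 7.82, 14.02, 9.40 and 8.28 FPKM in hairloss libraries, against 6.85, 18.1, 2.39 and 23.4 FPKM in wildtype libraries. Neither passed the genotype test. Flg2, a filaggrin relative, was lower in hairloss skin at days 16 and 19 like Lce1m, at 75.1, 32.0, 26.9 and 109.9 FPKM, against 78.2, 102, 212 and 66.3 FPKM in wildtype libraries.

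Over the 8 libraries, the protein-coding genes whose log2(FPKM + 1) went most closely with that of Lce1m, among 8697 genes reaching 10 FPKM, were Abca5, Skint9, Adamtsl1, Fopnl, Utrn, Cobl, Agpat5 and Glt8d1, with Pearson r of 0.980 to 0.950. Skint9 stood at 14.7, 4.02, 5.02 and 7.89 FPKM in hairloss libraries, against 14.9, 13.03, 29.8 and 14.1 FPKM in wildtype libraries, so it shared the low values at days 16 and 19 and the peak in the wildtype library of day 19. Most like the sum of the other 13 Lce1 genes were Lce1a1, Lce1b and Lce1d, which are part of it, and Thbs2 (0.969), Alox12b (0.958), Acadsb (0.951), Fbln5 (0.948) and Eef2k (0.946). Alox12b, which encodes a lipoxygenase of the epidermal lipid barrier, stood at 24.7, 11.2, 15.3 and 28.8 FPKM in hairloss libraries, against 17.9, 7.46, 20.5 and 5.57 FPKM in wildtype libraries. All points of a gene come from the same 8 libraries, so these values describe likeness across them and carry no test.

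Markers of other skin cell types also differed between the libraries compared. The 4 suprabasal markers summed to 3667 to 6757 FPKM in hairloss skin and 862 to 4195 FPKM in wildtype libraries, with Krt2 near 0 in every library and at 0 in hairloss skin at day 19. The 6 basal keratinocyte markers summed to 1450.1 to 7198 FPKM in hairloss skin and 1146 to 2652 FPKM in wildtype libraries, and 0, 1, 2 and 4 of them were more than 2-fold higher in hairloss skin at days 0, 16, 19 and 28. The 8 measured hair shaft keratins summed to 13.4 to 886 FPKM in hairloss skin and 17.4 to 4169 FPKM in wildtype libraries, all 8 being more than 2-fold lower in hairloss skin at days 16 and 28 and higher at day 19. By the size rule on log2(FPKM + 1), none of these markers passed 2-fold at day 0, when fewest members did. All 8 hair shaft keratins were lower in hairloss skin at that age. All but Krt35 were then near 1 FPKM or under it, where that scale compresses ratios. Krt31, for example, stood at 0.426 FPKM in hairloss skin and 1.74 FPKM in wildtype skin. Macrophage markers summed to 112 to 443 FPKM in hairloss skin and 130 to 292 FPKM in wildtype libraries, and neutrophil markers to 2.17 to 19.1 FPKM in hairloss skin and 0.451 to 1.52 FPKM in wildtype libraries, with Ly6g at 0 in 4 of the 8 libraries. Muscle markers had a median difference of -1.27, -1.14 and 1.08 at days 16, 19 and 28, fibroblast markers of 0.50, -0.82 and 0.62, and adipocyte markers of 0.11, -1.02 and 0.59. At day 19 the fibroblast, muscle and adipocyte medians were all below 0. Of the 33 members, 14 were then lower in hairloss skin and 19 higher. At day 16 only the muscle median of these was below 0, and 12 members were lower and 21 higher. What these cell types add to the members' differences was not tested.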

How the data were processed

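Skin RNA was isolated with RNeasy columns and made into TruSeq libraries, per the labels' protocols. The tools cutadapt and Cuffdiff and the build mm10 appear, with no version, per the submitters' processing notes; aligner, annotation release and strand handling were not given in the sources used here. For each library and Ensembl gene the authors deposited 1 value with no unit in the header; these deposited values were read as FPKM, an inference from the values (totals of 1080978 to 2501651) and from Cuffdiff being named. The files gave 21795 symbols and GENCODE M21 another 33471, and 152 genes had none.

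The members and the gene lists were chosen with earlier results of these data known. All members could be named, and genes of like pattern were the 8 with the highest r. Depth was estimated from the values that single fragments give in genes with 1 transcript over 1000 bases. At each age the 2 libraries were compared as log2(FPKM + 1) by the size rule without a test. limma 3.58.1 in R 4.3.3 (eBayes, trend and robust) was fitted to 18724 genes that reached 1 FPKM in any library, with genotype and a 4-level age, two-sided, Benjamini-Hochberg, threshold 0.05. Nothing says that libraries stand for separate animals. Alternatives were pseudocounts of 0.1 and 5, other scalings and filters, each age left out, eBayes without trend and robust, and no age block. Python 3.11.15 was used with numpy 2.4.6, pandas 2.3.3 and Biopython 1.88.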

Additional observations from a re-analysis of the deposited data

Results flagged for a closer look

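Lce1a2 and Lce1l drew attention because their genotype difference pointed in opposite directions at 2 ages, past 2-fold each time. For Lce1a2 the difference between hairloss and wildtype skin was -1.10 at day 19 and 1.58 at day 28 on the log2(FPKM + 1) scale. For Lce1l it was -1.28 at day 19 and 2.09 at day 28. In both genes the wildtype level was highest at day 19 and lowest at day 28. The difference between the ages was not tested, because each rests on 1 library per genotype.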

How the results depend on the processing

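Of 84 alternative values for nonzero member counts, Lce1 medians and Lce1m differences, 82 stayed within 1.5 times of the reported value, and counts reported as 0 remained 0 in 60 alternatives, which says nothing of their stability. The 2 that moved were the count of members higher at day 0, 1 instead of 2 with a pseudocount of 5, and the Lce1 difference at day 19, -0.059 by the sum of FPKM instead of a median of 0.68. No member passed the genotype test under any of 12 alternatives, the lowest adjusted p in limma over all 33 being 0.0744, for Lce1g without day 0. Over all genes 1 to 6 were then called higher and 0 to 4 lower. With no filter on low values the step from day 0 to day 16 called 168 genes higher and 288 lower. Without day 28 the mean differences of Lce1a2 and Lce1l were -0.14 and -0.12, opposite in sign to those over 4 ages (0.29 and 0.43), and with each age left out in turn they ran up to 0.76 and 1.003. The log2 ratio of the Lce1 sum, 1.13 at day 16 and 2.54 at day 28, turned to -0.62 and -0.46 relative to Krt10 and to -3.52 and -2.46 relative to Krt1, but was 2.05 and 1.997 relative to Lor. These ratios, and the counts without 1 age, were added after the data were seen. Scaling without keratin genes moved the median of all genes at day 28 to 0.11. The causes were not tested. The labels give no replicate numbers, so the libraries were paired by age alone, through the age block, and no member passed without that block.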
